A study of Homo sapiens with 12 samples.

Results

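The data describe the response of 6 cultured-cell libraries labelled KGN to 77-39, a small molecule that the study used as an inhibitor of the mitochondrial deacetylase SIRT3. KGN is a line derived from an adult granulosa cell tumor of the ovary. All 6 libraries came from cultures of this 1 labelled line, labelled wild type, with no other agent named: 3 untreated, and 3 exposed to 77-39 for 72 h at a dose that the labels write as 10 μm/ml, a unit that can be read in more than one way. Another 6 libraries of the series are labelled COV434 and enter only where a difference between the labelled lines was tested. Gene expression was measured by RNA-seq and deposited as FPKM, the number of fragments per kilobase of gene scaled by a factor for each library. Of the 58735 genes in the table, 12671 had a mean of at least 1 FPKM over the 6 libraries, and these genes form the set described here.

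The label was checked against known markers before any comparison. FOXL2, the transcription factor that defines granulosa cells, had 2 reads in the 6 libraries together (at most 0.0195 FPKM), whereas it stood at 11.5 to 14.0 FPKM in the libraries labelled COV434. SMARCA2, a chromatin remodelling ATPase, reached at most 0.00870 FPKM in the libraries labelled KGN and 4.51 to 6.48 FPKM in those labelled COV434. SMARCA4, another chromatin remodelling gene, was also lower in the libraries labelled KGN, at 2.25 to 2.6 FPKM against 6.51 to 12.6 FPKM. Of 25 granulosa cell markers, 8 reached a mean of 1 FPKM and 4 had no read in any of the 6 libraries. WT1, a granulosa cell marker that other cell types also express, went the other way, at 45.9 to 61.4 FPKM here against 0 in each of the libraries labelled COV434. The markers FSHR, AMHR2, NR5A1 and GATA4 had 0, 0, 1 and 6 reads in the 6 libraries, and reached at most 0.0836 FPKM in those labelled COV434. The summed level of the granulosa markers was 140 to 148 FPKM without and 132 to 133 FPKM with 77-39. WT1 was a large part of this sum, which therefore says little of granulosa identity. The values of FOXL2 and SMARCA2 go against the label, and whether the labels of the lines were exchanged was not tested, so the cells are called the libraries labelled KGN throughout and are given no other name. Markers of other cell types were low: the summed level of 16 epithelial markers was 3.12 to 3.42 FPKM without and 2.94 to 3.34 FPKM with 77-39, and that of 13 leukocyte and endothelial markers was 5.95 to 7.02 and 6.11 to 6.57 FPKM. The summed level of 11 fibroblast and stromal markers was 83.6 to 88.8 FPKM without and 67.9 to 71.2 FPKM with 77-39, and of the 5 tested ACTA2 and COL3A1 fell while LUM and POSTN rose. The 6 libraries held 15547851 to 18135160 reads, and in the deposited values a count of 3 reads over a gene of 1 kb corresponds to 0.152 to 0.179 FPKM. Replicates of a group correlated at 0.983 to 0.988 across genes and the groups at 0.969 to 0.973. Untreated replicate 1 and 77-39 replicate 3 stood apart from their groups. A chi-square of the reads per gene was 8.36 and 8.28 for untreated replicate 1 against the other untreated libraries, which differed by 2.36, and 6.96 and 6.54 for 77-39 replicate 3 against the other treated libraries, which differed by 2.91.

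Cells that meet nutrient, oxidative or protein-folding stress use a small number of transcription factors with largely separate target genes. ATF4 and CHOP raise amino acid supply, NRF2 raises antioxidant enzymes, ATF6 and XBP1 raise chaperones of the endoplasmic reticulum (ER), and TFEB and its relatives raise lysosomal genes. Growth-arrested cells in turn lower the E2F and mitotic gene sets. SIRT3 removes acetyl groups from mitochondrial proteins, so its own targets are proteins and not transcripts.

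With 77-39, 2230 genes (17.6% of those tested) were upregulated and 2077 (16.4%) were downregulated at an adjusted p under 0.05, and the median log2 fold change over all genes was 0.01. Each count of a gene group given here is to be read against these shares. The 3 treated and 3 untreated values did not overlap in 49.7% of the genes tested. Most genes named below were picked with no overlap as a condition, so its mention for them describes the values and adds no support. Most changes were small. Of the genes called, 201 rose and 333 fell by more than 0.585 on the log2(FPKM + 1) scale, and 33 rose and 48 fell by more than 1. Without 77-39 replicate 2 the counts were 1393 and 1374, and without the libraries that stood apart they were 2054 and 2081 (untreated replicate 1) or 2023 and 1997 (77-39 replicate 3). Group counts that moved by more than 1.5 times without 1 library are given with that library. Counts of 3 or fewer moved by at most 4 and are given so only in part. In cultures, fewer cells of a type and less RNA per cell cannot be told apart, and nothing in the labels shows that replicates were separate cultures, so p-values measure the spread between these libraries.

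**Figure D1:**
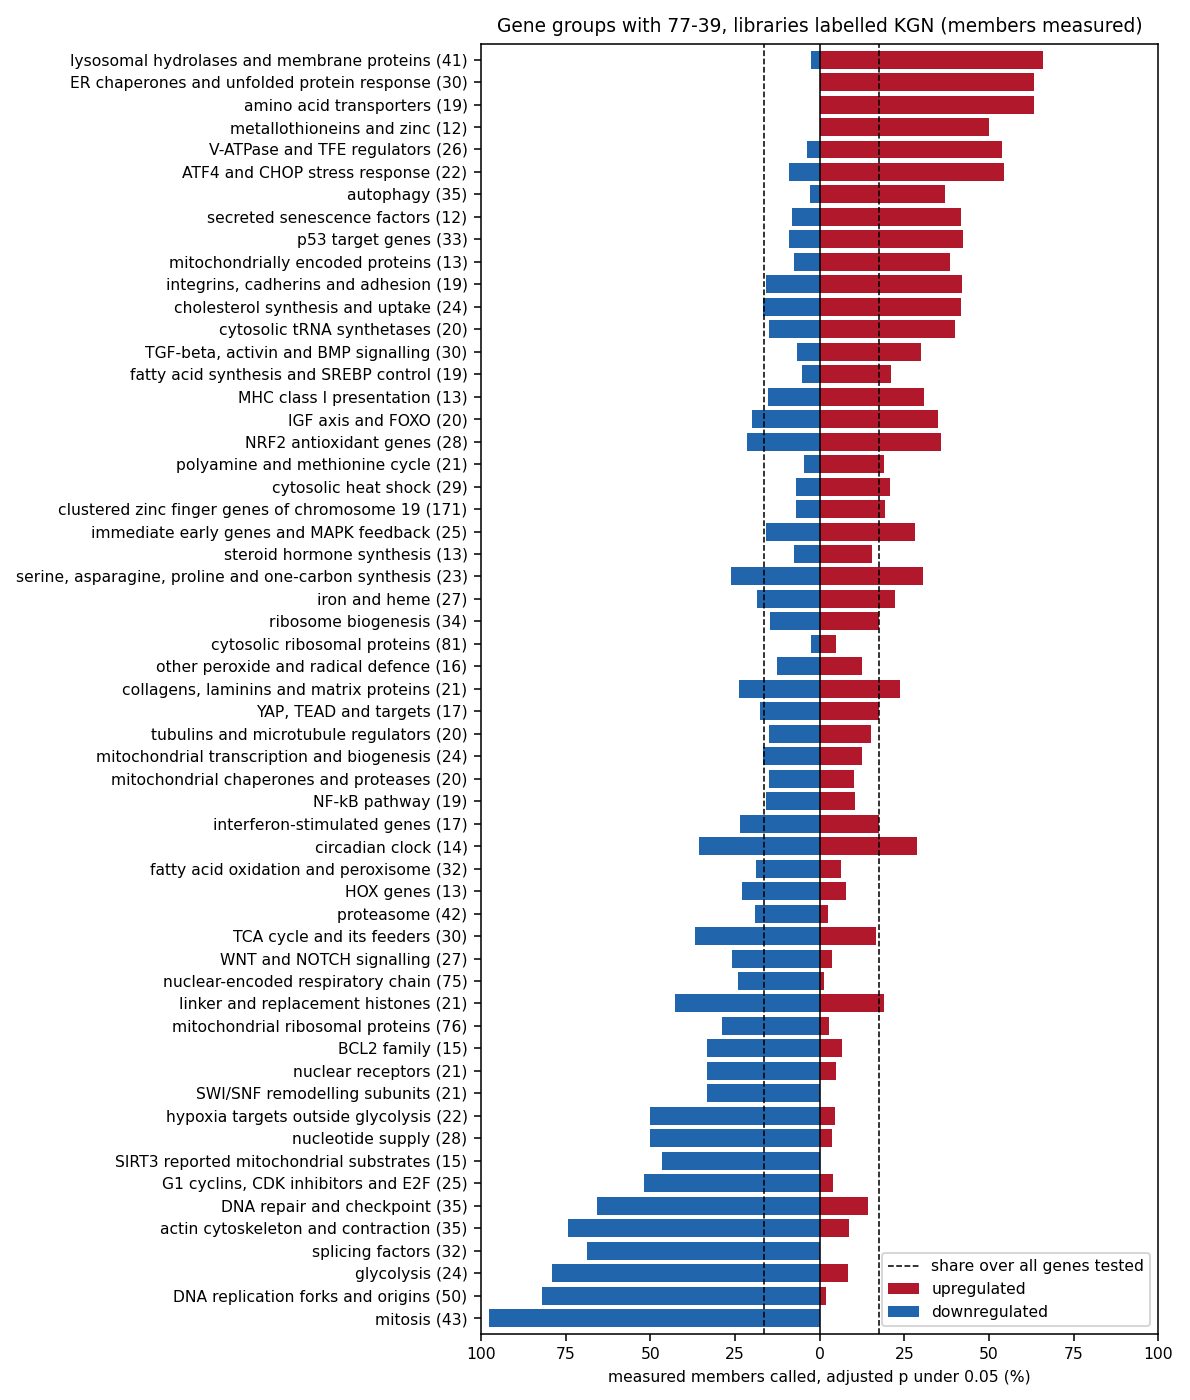
Share of the measured members of each gene group that were upregulated (bars to the right, percent) or downregulated (bars to the left, percent) with 77-39 in the libraries labelled KGN, for groups of 12 or more measured members, with that number beside each name. The dashed lines mark the shares over all 12671 genes, 17.6% upregulated and 16.4% downregulated, and the mitosis, DNA replication and glycolysis groups reach farthest to the left while lysosomal genes, amino acid transporters and ER chaperones reach farthest to the right.

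The cell division machinery was downregulated. Of 43 mitotic genes, 42 fell and none rose (median log2 fold change −0.67), and of 50 genes for replication origins and forks, 41 fell and 1 rose (median −0.55). MCM7, a subunit of the replicative helicase, was at 37.3, 42.02 and 41.4 FPKM in the untreated libraries and 18.2, 17.9 and 19.6 FPKM in the treated libraries. MCM3, of the same helicase, was at 45.3, 47.6 and 46.3 FPKM untreated and 23.8, 24.7 and 23.8 FPKM treated. The groups did not overlap for either gene, and both fell (log2 fold change −1.07 ± 0.06, adjusted p = 0.00018 for MCM7 and log2 fold change −0.92 ± 0.04, adjusted p = 9.1e-05 for MCM3, with SE after the ± sign here and below). ORC1, a subunit of the origin recognition complex, fell from 5.31 ± 0.599 to 2.07 ± 0.206 FPKM (mean ± SD, n = 3), and LIG1, the ligase that joins Okazaki fragments, changed by −0.76 ± 0.06 on the log2 scale. Among mitotic genes the largest falls were in MYBL2, a transcription factor of late cell cycle genes, and PLK1, a kinase of mitotic entry. MYBL2 was at 30.5, 34.1 and 34.5 FPKM in the untreated libraries and 14.2, 14.5 and 14.02 FPKM in the treated libraries, and PLK1 at 17.97, 19.9 and 18.97 FPKM untreated and 8.89, 8.52 and 8.42 FPKM treated. In both genes every treated library was below every untreated one (log2 fold change −1.16 ± 0.06, adjusted p = 0.00012 for MYBL2 and log2 fold change −1.05 ± 0.05, adjusted p = 0.00012 for PLK1). The chromosomal passenger proteins AURKB (−0.92 ± 0.07) and CDCA8 (−0.89 ± 0.05) and the checkpoint kinase BUB1B (−0.79 ± 0.05) followed in size. The replication gene that rose was ORC4 (0.21 ± 0.06), which lost its call when the trend with GC content was removed.

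Genes that supply nucleotides also fell. Of 28 members, 14 fell and 1 rose. Thymidine kinase TK1 was at 29.7, 35.4 and 33.96 FPKM in the untreated libraries and 14.04, 14.4 and 14.6 FPKM in the treated libraries. The ribonucleotide reductase subunit RRM2 was at 12.6, 12.3 and 12.3 FPKM untreated and 6.31, 5.76 and 5.69 FPKM treated. Both sets of treated values lay below all untreated values (log2 fold change −1.15 ± 0.07, adjusted p = 0.00018 for TK1 and log2 fold change −0.96 ± 0.05, adjusted p = 0.00014 for RRM2). Thymidylate synthase TYMS fell from 24.2 ± 0.924 to 14.2 ± 0.348 FPKM. DCTD, a deaminase of deoxycytidylate, was the member that rose (0.24 ± 0.04). RRM2B, the subunit of ribonucleotide reductase that p53 induces, moved the other way from RRM2 and rose from 15.7 ± 1.09 to 24.96 ± 0.414 FPKM.

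Upstream regulators of the cell cycle also changed. E2F1 was at 20.1, 20.2 and 19.3 FPKM in the untreated libraries and 9.67, 8.71 and 10.1 FPKM in the treated libraries (log2 fold change −0.99 ± 0.06, adjusted p = 0.00018). Its relatives E2F2 (−0.90 ± 0.09) and E2F8 (−0.95 ± 0.07) fell as well, and E2F6, a repressor of the family, rose (0.22 ± 0.05). The inhibitor CDKN2D, which binds CDK4 and CDK6, fell from 8.16 ± 0.0224 to 3.53 ± 0.900 FPKM. In all, 13 of 25 genes of the G1 and E2F group fell and 1 rose. DNA repair and checkpoint genes moved both ways: 23 of 35 fell and 5 rose. The nuclease EXO1 (−0.73 ± 0.05), the Fanconi anemia genes FANCA (−0.73 ± 0.05) and FANCG (−0.67 ± 0.07) and the recombination factor RAD54L (−0.68 ± 0.08) fell. The checkpoint kinases ATM (0.31 ± 0.08) and ATR (0.38 ± 0.08), NBN of the MRN complex (0.48 ± 0.07) and the end-joining ligase LIG4 (0.43 ± 0.06) rose.

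The letters of known control elements were searched in the RefSeq promoters of these genes (250 bases before to 50 after the start, build GRCh38.p14, both strands). The E2F-type element TTTNNCGC was present in 22 of the 42 replication genes with a promoter (52.4%) in 11.4% of the promoters of all genes tested and in 6.90% of all promoters of the reference. The cell cycle homology region (CHR), TTTGAA, was present in 24 of 36 mitotic genes (66.7%) in 9.31% of those of all genes tested and in 15.4% of all promoters. Such a match is a description of the letters and not evidence that a factor was bound. Stretches of 80 bases upstream of the start are shown for genes with large falls, 5′ to 3′ on the gene's strand, with the element in capitals on either strand.
MCM3, E2F-type, chr6:52284849-52284928 (minus strand): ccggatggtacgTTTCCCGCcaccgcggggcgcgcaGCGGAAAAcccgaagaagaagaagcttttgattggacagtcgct
MCM7, E2F-type, chr7:100101398-100101477 (minus strand): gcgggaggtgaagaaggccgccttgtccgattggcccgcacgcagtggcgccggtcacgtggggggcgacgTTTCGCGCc
LIG1, E2F-type, chr19:48170415-48170494 (minus strand): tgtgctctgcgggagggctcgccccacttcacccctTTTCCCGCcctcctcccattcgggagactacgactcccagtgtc
PLK1, CHR, chr16:23678809-23678888 (plus strand): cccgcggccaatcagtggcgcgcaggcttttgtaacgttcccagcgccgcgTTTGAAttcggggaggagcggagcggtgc
CDCA8, CHR, chr1:37692436-37692515 (plus strand): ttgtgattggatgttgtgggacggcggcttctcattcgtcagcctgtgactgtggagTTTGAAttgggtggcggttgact
BUB1B, CHR, chr15:40160989-40161068 (plus strand): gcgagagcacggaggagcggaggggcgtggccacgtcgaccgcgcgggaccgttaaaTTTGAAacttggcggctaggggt

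Histone genes moved in both directions. The genes H1FX and H1F0, which code for linker histones, were downregulated. H1FX was at 60.7, 63.2 and 57.6 FPKM in the untreated libraries and 23.8, 25.2 and 30.2 FPKM in the treated libraries (log2 fold change −1.17 ± 0.09, adjusted p = 0.00036), and H1F0 fell from 325 ± 19.1 to 129 ± 4.15 FPKM. CENPA, the histone H3 variant of the centromere, fell from 13.7 ± 0.648 to 8.18 ± 0.441 FPKM, and H2AFX fell from 75.02 ± 9.89 to 50.8 ± 8.04 FPKM. In contrast, HIST1H2BK was at 75.9, 87.9 and 84.02 FPKM untreated and 122, 122 and 151 FPKM treated (log2 fold change 0.66 ± 0.10, adjusted p = 0.0034), and HIST1H2AC (0.62 ± 0.10) and HIST1H4H (0.65 ± 0.12) rose too. Of 21 histone genes measured, 4 rose and 9 fell. Core histone genes are near-identical copies, so reads could be split between them and their single values are uncertain.

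Genes known as p53 targets rose in part: 14 of 33 rose (42.4%, against 17.6% of all genes) and 3 fell (9.09%, against 16.4%). The median was 0.18, and 16 genes were not called. The cytokine GDF15, which ATF4 also induces, was at 15.5, 17.6 and 16.4 FPKM in the untreated libraries and 25.6, 28.1 and 32.7 FPKM in the treated libraries (log2 fold change 0.76 ± 0.09, adjusted p = 0.0016). The RNA-binding protein ZMAT3 was at 7.58, 7.04 and 7.21 FPKM untreated and 11.5, 11.9 and 10.00 FPKM treated, and the autophagy-linked TP53INP1 at 6.01, 5.67 and 5.53 FPKM untreated and 9.52, 8.83 and 7.65 FPKM treated. All 3 genes had no overlap between the groups (ZMAT3 0.55 ± 0.07, TP53INP1 0.52 ± 0.08). The quinone oxidoreductase TP53I3 (−0.47 ± 0.06), the damage recognition factor DDB2 (−0.43 ± 0.05) and the kinase PLK2 (−0.24 ± 0.05) fell. In the BCL2 family the BH3-only gene HRK rose from 5.65 ± 0.470 to 9.79 ± 0.542 FPKM, while the mitophagy receptors BNIP3 and BNIP3L, which are hypoxia targets, fell. PPP1R13L, which codes for the p53-binding inhibitor iASPP, was in no group and fell from 28.8 ± 3.06 to 11.6 ± 0.782 FPKM (log2 fold change −1.24 ± 0.09, adjusted p = 0.00027).

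The arm of the stress response run by ATF4 and CHOP was upregulated in part: 12 of 22 genes rose and 2 fell (median 0.34). DDIT3, which codes for CHOP, was at 53.3, 54.5 and 54.7 FPKM in the untreated libraries and 98.2, 97.8 and 101 FPKM in the treated libraries. JDP2, a repressor of the AP-1 family, was at 2.29, 1.81 and 1.49 FPKM untreated and 3.38, 3.58 and 3.49 FPKM treated. The treated values were above the untreated ones in both (log2 fold change 0.86 ± 0.04, adjusted p = 0.00012 for DDIT3 and log2 fold change 0.65 ± 0.10, adjusted p = 0.0043 for JDP2). DDIT4, an inhibitor of mTORC1 that hypoxia also induces, went the other way and fell from 37.7 ± 6.61 to 21.7 ± 2.93 FPKM (log2 fold change −0.76 ± 0.14, adjusted p = 0.0069). Amino acid transporters also rose, with 12 of 19 upregulated and none downregulated. SLC3A2, the heavy chain shared by several exchangers, was at 45.7, 49.04 and 45.3 FPKM in the untreated libraries and 99.2, 101 and 105 FPKM in the treated libraries. SLC7A11, its partner in cystine uptake, was at 9.12, 10.2 and 9.90 FPKM untreated and 19.1, 19.5 and 17.8 FPKM treated, and SLC7A5, its partner in leucine uptake, at 75.1, 81.8 and 80.8 FPKM untreated and 118, 118 and 114 FPKM treated. SLC3A2 and its partners rose without overlap (log2 fold change 1.11 ± 0.05, adjusted p = 9.1e-05 for SLC3A2, log2 fold change 0.89 ± 0.06, adjusted p = 0.00022 for SLC7A11 and log2 fold change 0.55 ± 0.05, adjusted p = 0.00063 for SLC7A5).

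Amino acid synthesis and tRNA charging split between genes. Of 23 genes of serine, asparagine, proline and one-carbon synthesis, 7 rose and 6 fell. The mitochondrial folate enzyme ALDH1L2 rose from 3.02 ± 0.141 to 6.10 ± 0.308 FPKM, PSAT1 of serine synthesis rose from 248 ± 10.04 to 335 ± 10.8 FPKM, and the transaminase GOT1 rose from 56.6 ± 1.86 to 77.02 ± 0.682 FPKM. The cytosolic enzymes SHMT1 (−0.68 ± 0.06) and MTHFD1 (−0.30 ± 0.04), the proline enzyme PYCR3 (−0.50 ± 0.05) and BCAT2 (−0.37 ± 0.06) fell. Among 20 cytosolic tRNA synthetases, 8 rose and 3 fell, and the number that rose was 4 without 77-39 replicate 2 and 5 without untreated replicate 2, untreated replicate 3 or 77-39 replicate 1. WARS, for tryptophan, was at 21.4, 22.4 and 21.4 FPKM in the untreated libraries and 43.2, 41.8 and 43.6 FPKM in the treated libraries. GARS, for glycine, was at 152, 163 and 160.1 FPKM untreated and 245, 253 and 241 FPKM treated. AARS, for alanine, was at 123, 131 and 135 FPKM untreated and 75.5, 74.7 and 68.3 FPKM treated. WARS (log2 fold change 0.95 ± 0.04, adjusted p = 9.1e-05) and GARS (log2 fold change 0.63 ± 0.05, adjusted p = 0.00043) rose while AARS fell (log2 fold change −0.82 ± 0.06, adjusted p = 0.00033), and none of the 3 had overlapping groups.

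The antioxidant genes of NRF2 also split. Of 28 measured, 10 rose and 6 fell. The ferritin light chain FTL was at 332, 333 and 295 FPKM in the untreated libraries and 542, 587 and 670.2 FPKM in the treated libraries, and GCLM, the modifier subunit of glutathione synthesis, at 8.28, 9.04 and 9.62 FPKM untreated and 13.5, 13.1 and 13.2 FPKM treated. Every treated library was above every untreated one for both genes (log2 fold change 0.90 ± 0.09, adjusted p = 0.00099 for FTL and log2 fold change 0.51 ± 0.06, adjusted p = 0.0013 for GCLM). HMOX1, which breaks down heme, rose from 16.1 ± 0.782 to 104 ± 2.68 FPKM. In the same group the pentose phosphate enzyme TKT (−0.49 ± 0.05), the aldose reductase AKR1B1 (−0.27 ± 0.05) and KEAP1, the adaptor that degrades NRF2 (−0.34 ± 0.05), fell. NQO1, a common NRF2 readout, was at 6.98, 6.94 and 7.92 FPKM untreated and 6.66, 6.47 and 7.46 FPKM treated and was not called (adjusted p = 0.45). Among other iron genes, the iron chaperone PCBP1 fell from 102 ± 7.09 to 65.7 ± 1.37 FPKM, the transferrin receptor TFRC changed by −0.23 ± 0.05, and the heme synthesis gene PPOX fell (−0.58 ± 0.06). Of 27 iron and heme genes 6 rose and 5 fell. The number that rose was 2 without untreated replicate 3, and the number that fell was 3 without 77-39 replicate 2. GPX8, a peroxidase of the ER, rose from 2.76 ± 0.299 to 5.28 ± 0.364 FPKM. The antioxidant response element core TGACNNNGC was present in 5 of 21 promoters of the NRF2 group (23.8%). The share was 15.5% among all genes tested and 13.6% among all promoters, and lysosomal genes had more, at 9 of 26 (34.6%). In GCLM the core lies upstream of the start in reverse orientation.
GCLM, antioxidant response element core, chr1:93909431-93909510 (minus strand): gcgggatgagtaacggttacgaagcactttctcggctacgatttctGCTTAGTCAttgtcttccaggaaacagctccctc

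ER chaperones and regulators of the unfolded protein response rose together: 19 of 30 were upregulated and none was downregulated (median 0.30). DNAJB9, a cochaperone of the ER, was at 8.76, 8.64 and 8.49 FPKM in the untreated libraries and 15.6, 16.7 and 16.1 FPKM in the treated libraries. HYOU1, a large chaperone of the ER lumen, was at 29.2, 28.1 and 28.05 FPKM untreated and 48.4, 46.4 and 46.7 FPKM treated. The sensor ATF6 was at 9.73, 9.84 and 9.71 FPKM untreated and 17.1, 16.2 and 15.99 FPKM treated, and SEL1L, of the ER degradation machinery, at 9.45, 9.46 and 9.09 FPKM untreated and 15.7, 15.7 and 14.8 FPKM treated. All 4 genes rose with no overlap (log2 fold change 0.83 ± 0.04, adjusted p = 0.00014 for DNAJB9, log2 fold change 0.71 ± 0.04, adjusted p = 0.00018 for HYOU1, log2 fold change 0.69 ± 0.04, adjusted p = 0.00021 for ATF6 and log2 fold change 0.67 ± 0.04, adjusted p = 0.00025 for SEL1L). HSPA5, the main ER chaperone, was at 62.9, 59.6 and 56.99 FPKM untreated and 89.7, 90.8 and 87.1 FPKM treated (0.57, adjusted p = 0.0006). The CCAAT box was present in 24 of 28 promoters of this group (85.7%), in 37.8% of those of all genes tested and in 35.7% of all promoters. It was not particular to genes that rose: 27 of 36 mitotic promoters (75%) and 15 of 19 histone promoters (78.9%) held it. Over all genes called it was present in 36.8% of those that rose and 43.3% of those that fell. Cytosolic heat shock genes were mostly not called: 6 of 29 rose and 2 fell. HSP90AA1 (0.43 ± 0.05), HSPA8 (0.36 ± 0.05) and HSPH1 (0.30 ± 0.05) rose, and the cochaperones FKBP4 (−0.26 ± 0.04) and STIP1 (−0.25 ± 0.04) fell. Mitochondrial chaperones and proteases were mostly not called, with 2 of 20 higher and 3 lower.

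Lysosomal genes also rose largely together. Of 41 hydrolases and membrane proteins, 27 rose and 1 fell (median 0.31). The peptidase TPP1 was at 16.4, 19.4 and 18.6 FPKM in the untreated libraries and 34.1, 32.96 and 31.3 FPKM in the treated libraries. The sialidase NEU1 was at 10.97, 11.6 and 10.96 FPKM untreated and 19.5, 19.6 and 21.99 FPKM treated. LAMP2, a main protein of the lysosomal membrane, was at 19.6, 19.04 and 18.3 FPKM untreated and 33.8, 33.8 and 31.5 FPKM treated. The treated and untreated values did not overlap for any of these (log2 fold change 0.82 ± 0.07, adjusted p = 0.00048 for TPP1, log2 fold change 0.81 ± 0.06, adjusted p = 0.00032 for NEU1 and log2 fold change 0.77 ± 0.05, adjusted p = 0.00022 for LAMP2). The protease CTSD rose from 18.1 ± 1.25 to 29.8 ± 0.869 FPKM, and the glucuronidase GUSB was the member that fell (−0.34 ± 0.05). Of 26 genes of the proton pump and its mTORC1 and TFE regulators, 14 rose and 1 fell. RRAGC, a GTPase that recruits mTORC1 to lysosomes, was at 5.52, 5.97 and 5.59 FPKM untreated and 8.79, 9.23 and 7.65 FPKM treated (0.51 ± 0.07), and the pump subunit ATP6V1G1 rose from 67.5 ± 4.23 to 95.6 ± 4.72 FPKM. TFEB itself was the member that fell (−0.27 ± 0.08). Autophagy genes rose in part (13 of 35 higher and 1 lower), and the number higher was 7 without untreated replicate 3, 77-39 replicate 1 or 77-39 replicate 2. MAP1LC3B, the protein that marks autophagosomes, was at 22.3, 22.7 and 20.7 FPKM untreated and 36.2, 36.2 and 36.1 FPKM treated (log2 fold change 0.70 ± 0.05, adjusted p = 0.00025). The E-box TCACGTG, the letters of the element that TFEB binds, occurs upstream of NEU1, CTSD and RRAGC. A promoter was matched for 26 of the 41 lysosomal genes, and 6 of the 26 (23.1%) held these letters. Among all genes tested the share was 6.19%, and among all promoters 3.82%. RRAGC belongs to the proton pump and regulator group, in which 6 of 19 promoters (31.6%) held these letters. The letters were not particular to lysosomal genes or to groups that rose. They were in 3 of 13 promoters of YAP, TEAD and their targets (23.1%) and 6 of 42 replication promoters (14.3%). Over all genes called they were in 8.76% of those that rose and 5.11% of those that fell.
NEU1, CLEAR-type E-box, chr6:31862906-31862985 (minus strand): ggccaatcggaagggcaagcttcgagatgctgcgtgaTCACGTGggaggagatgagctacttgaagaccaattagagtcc
CTSD, CLEAR-type E-box, chr11:1763932-1764011 (minus strand): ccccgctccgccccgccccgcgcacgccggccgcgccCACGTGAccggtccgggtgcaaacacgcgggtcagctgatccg
RRAGC, CLEAR-type E-box, chr1:38859842-38859921 (minus strand): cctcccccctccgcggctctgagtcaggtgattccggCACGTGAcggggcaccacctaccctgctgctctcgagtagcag

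**Figure D2:**
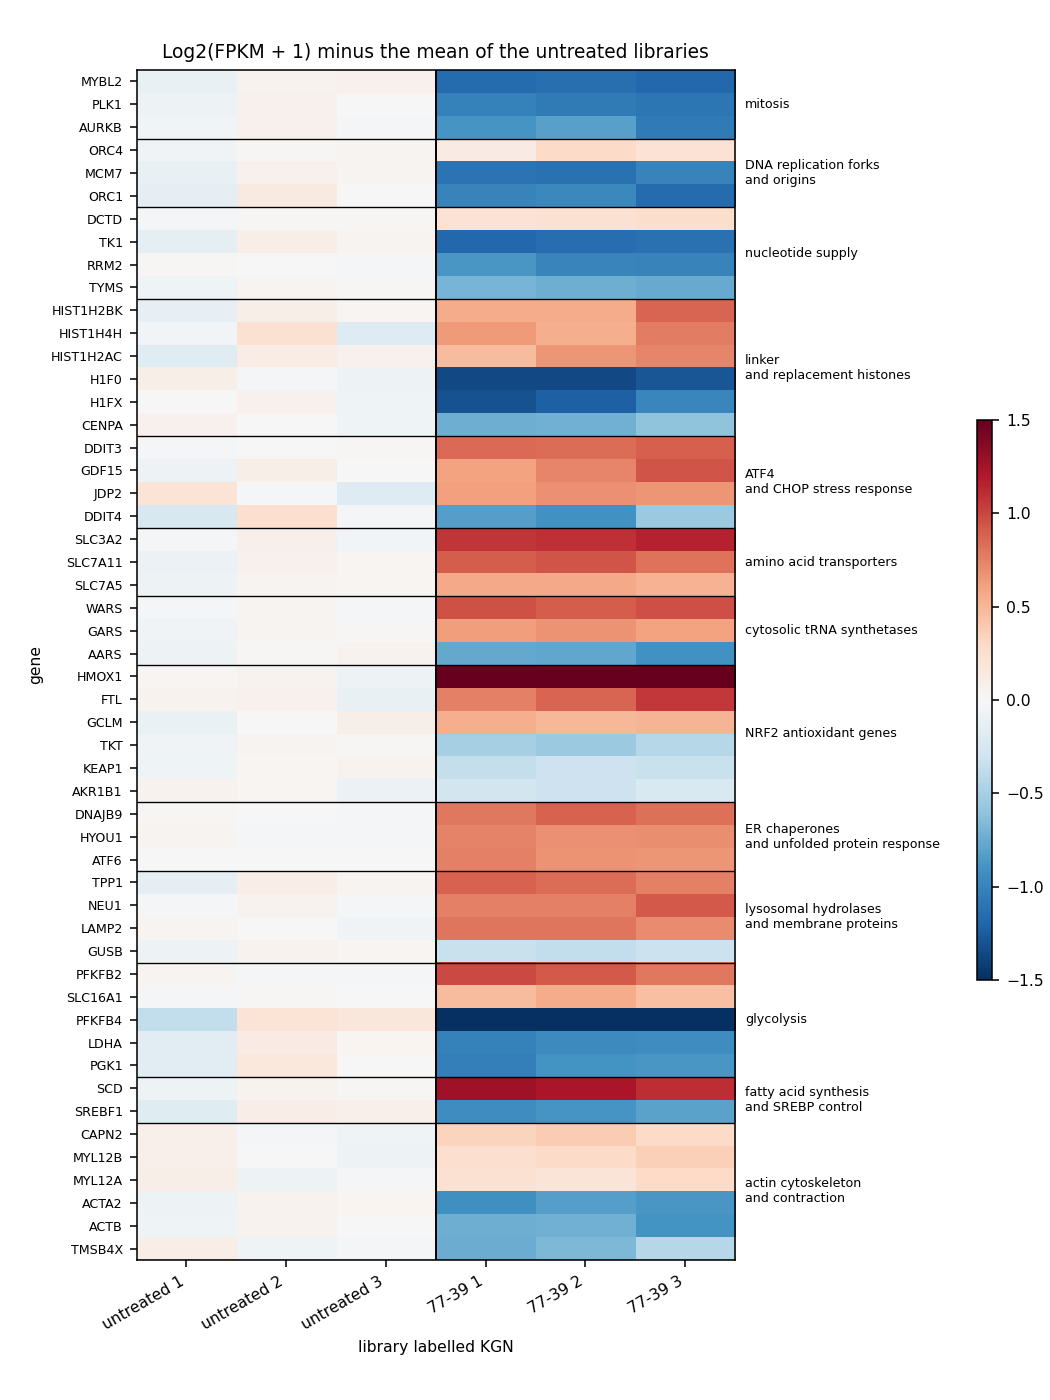
Log2(FPKM + 1) in each of the 6 libraries labelled KGN (columns) minus the mean of the 3 untreated libraries, for the named genes of each group with the largest called changes in either direction (rows), on a color scale from blue (lower) to red (higher) in log2 units. Within a row the 3 treated columns lie on 1 side of 0, as genes without overlap were picked, and the 3 untreated columns lie near 0. Rows of both directions are drawn where a group has them, and AARS, DDIT4, SREBF1 and PFKFB2 are among those that differ in direction from other genes of their groups.

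Glycolytic enzymes were downregulated almost throughout: 19 of 24 fell and 2 rose (median −0.58). PFKFB4, which makes the activator of phosphofructokinase, was at 4.21, 6.72 and 6.55 FPKM in the untreated libraries and 1.20, 1.23 and 1.36 FPKM in the treated libraries. Lactate dehydrogenase LDHA was at 68.1, 83.1 and 77.7 FPKM untreated and 37.1, 38.6 and 39.5 FPKM treated, and phosphoglycerate kinase PGK1 at 85.2, 106 and 95.7 FPKM untreated and 46.3, 50.9 and 51.5 FPKM treated. The liver-type phosphofructokinase PFKL was at 13.99, 19.3 and 17.4 FPKM untreated and 7.99, 8.63 and 9.13 FPKM treated. The groups did not overlap for these 4 genes (log2 fold change −1.57 ± 0.15, adjusted p = 0.00074 for PFKFB4, log2 fold change −0.97 ± 0.08, adjusted p = 0.0004 for LDHA, log2 fold change −0.93 ± 0.09, adjusted p = 0.00069 for PGK1 and log2 fold change −0.89 ± 0.11, adjusted p = 0.0018 for PFKL). In all 4 of them untreated replicate 1 was the lowest untreated library. GAPDH, among the most abundant transcripts, fell from 619 ± 53.8 to 337 ± 22.4 FPKM. PFKFB2, another isoform of the enzyme that PFKFB4 encodes, was at 4.74, 4.51 and 4.50 FPKM untreated and 10.1, 9.55 and 8.66 FPKM treated and rose (log2 fold change 0.90 ± 0.06, adjusted p = 0.00027), as did the lactate and pyruvate transporter SLC16A1 (0.49 ± 0.04). Many glycolytic genes are targets of the hypoxia factor HIF-1, and of 22 further hypoxia targets 11 fell and 1 rose, with the number that fell at 7 without untreated replicate 3 or 77-39 replicate 1. BNIP3L fell (−1.02 ± 0.07), BNIP3 fell from 19.1 ± 1.99 to 9.15 ± 0.418 FPKM, the collagen lysyl hydroxylase PLOD1 fell from 49.2 ± 5.70 to 26.4 ± 0.738 FPKM and FAM162A fell from 16.9 ± 0.369 to 9.32 ± 0.189 FPKM. The lysyl oxidase LOX rose (0.33 ± 0.08).

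Mitochondrial metabolism changed in both directions. Of 30 genes of the tricarboxylic acid cycle and its feeders, 5 rose and 11 fell, and the number that fell was 7 without untreated replicate 2, untreated replicate 3 or 77-39 replicate 2. The NADP-dependent isocitrate dehydrogenases of the cytosol and the mitochondrion moved apart. The cytosolic enzyme IDH1 rose from 15.1 ± 0.568 to 40.3 ± 1.48 FPKM, and the mitochondrial enzyme IDH2 was at 38.8, 44.7 and 42.6 FPKM in the untreated libraries and 24.4, 26.6 and 28.3 FPKM in the treated libraries (log2 fold change −0.65 ± 0.07, adjusted p = 0.0013). Pyruvate carboxylase PC (−0.57 ± 0.07), fumarase FH (−0.35 ± 0.05) and the succinate dehydrogenase subunit SDHA (−0.52 ± 0.07) fell. Of 75 nuclear-encoded subunits of the respiratory chain, 18 fell and 1 rose, so that 24% fell against 16.4% of all genes, and the number that fell was 10 without 77-39 replicate 1 and 11 without untreated replicate 2 or 77-39 replicate 2. UQCRC1 of complex III fell from 70.3 ± 2.08 to 48.5 ± 2.08 FPKM, and ATP5F1B of ATP synthase fell from 393 ± 24.01 to 286 ± 6.20 FPKM. Of 76 mitochondrial ribosomal proteins 22 fell and 2 rose, and the number that fell was 13 without 77-39 replicate 1 or 77-39 replicate 2. MRPS34 fell from 98.00 ± 2.46 to 60.9 ± 8.70 FPKM, and MRPS15 rose from 19.7 ± 0.861 to 26.2 ± 0.610 FPKM.

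Transcripts of the mitochondrial genome moved in both directions. Of 13 protein-coding genes, 5 rose and 1 fell (median 0.29). MT-ND6 was at 3039, 3135 and 3037 FPKM in the untreated libraries and 5461, 4842 and 5553 FPKM in the treated libraries, and MT-ND2 at 2523, 2165 and 2024 FPKM untreated and 3582, 3035 and 3786 FPKM treated. MT-CO3, a subunit of cytochrome oxidase, was at 7713, 8315 and 7520 FPKM untreated and 4825, 4293 and 5411 FPKM treated. The complex I genes rose and MT-CO3 fell with no overlap (log2 fold change 0.78 ± 0.10, adjusted p = 0.0017 for MT-ND6, log2 fold change 0.63 ± 0.13, adjusted p = 0.01 for MT-ND2 and log2 fold change −0.70 ± 0.12, adjusted p = 0.0061 for MT-CO3). MT-ND5 (0.44 ± 0.09) and MT-ND4 (0.43 ± 0.12) rose as well, and the number that rose was 2 without untreated replicate 3 and 3 without untreated replicate 2 or 77-39 replicate 1. With quantile normalization 3 rose and 3 fell, with a median of 0.04. Mitochondrial genes took 7.30% to 7.68% of the reads of the untreated libraries and 7.58% to 8.81% of those of the treated libraries, and the part of this difference in the single values was not tested. MT-ND6 is encoded on the strand opposite to its neighbours and the use of strand in counting is not stated, so its reads cannot be told apart from antisense RNA of the other strand. Of 15 mitochondrial proteins reported as substrates of SIRT3, 7 fell at the transcript level and none rose, with IDH2 and SDHA among them and the permeability transition regulator PPIF at −0.46 ± 0.04. None of the 7 sirtuin transcripts measured was called, SIRT3 included (at 3.63 to 4.55 FPKM).

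**Figure D3:**
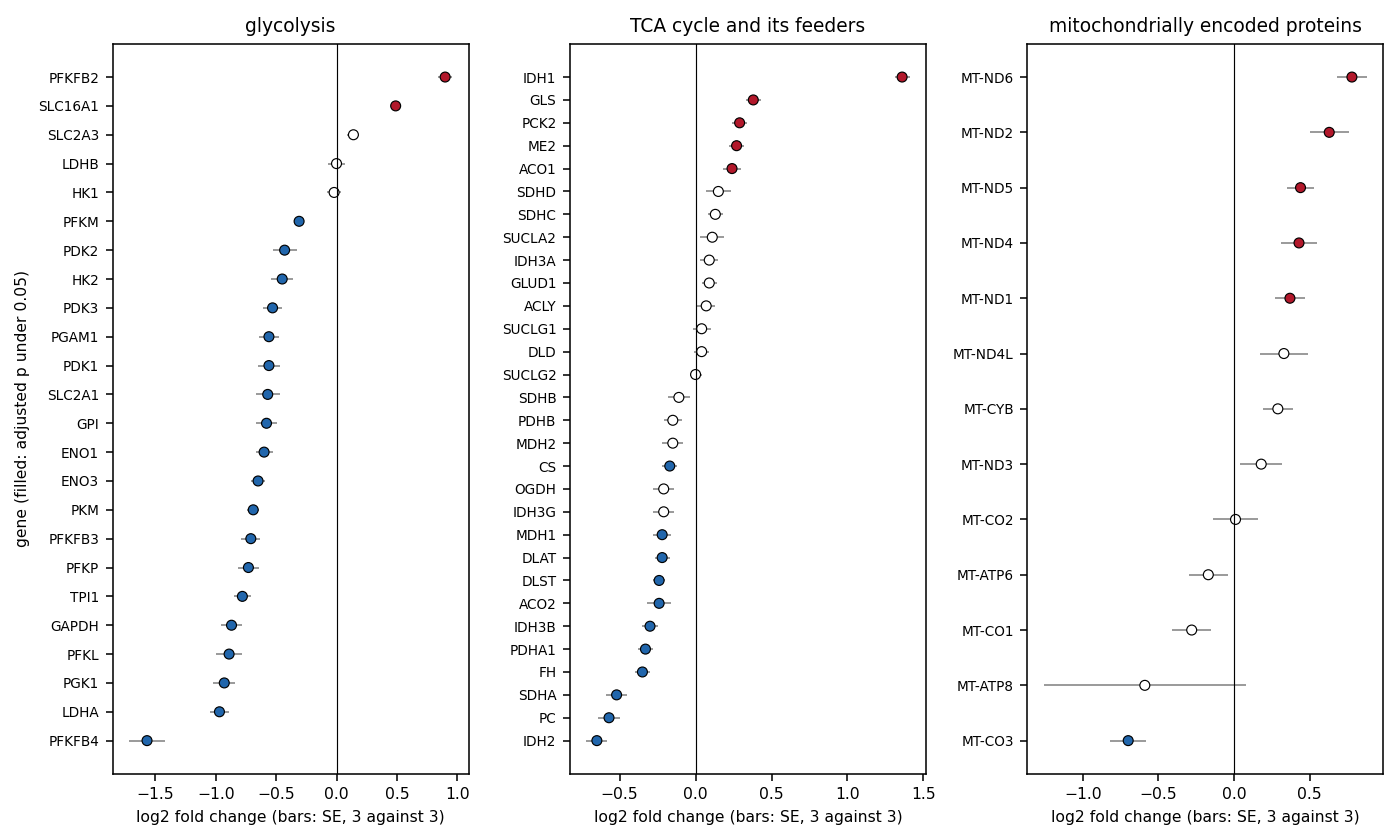
Log2 fold change with 77-39 (x axis, with SE as bars) of every measured member of glycolysis, of the tricarboxylic acid cycle and its feeders, and of the mitochondrially encoded proteins in the libraries labelled KGN. Filled points passed an adjusted p of 0.05. Glycolytic members lie left of 0 apart from PFKFB2, SLC16A1 and members that were not called, while IDH1 and IDH2 stand at opposite ends of the middle panel and MT-CO3 stands apart from the MT-ND genes.

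Among lipid genes, the enzyme gene SCD and the regulator gene SREBF1 moved in opposite directions. Stearoyl-CoA desaturase SCD, which makes monounsaturated fatty acids, was at 318, 347 and 338 FPKM in the untreated libraries and 809.6, 779 and 719.5 FPKM in the treated libraries. SREBF1, which codes for the transcription factor of fatty acid synthesis, was at 48.4, 59.5 and 58.5 FPKM untreated and 28.6, 29.6 and 31.2 FPKM treated. SCD rose (log2 fold change 1.20 ± 0.07, adjusted p = 0.00018) and SREBF1 fell (log2 fold change −0.87 ± 0.08, adjusted p = 0.00076), each with no overlap. Fatty acid synthesis and its control were called in few genes, with 4 of 19 higher and 1 lower. The number higher was 2 without untreated replicate 3 or 77-39 replicate 2, and the number lower was 3 without untreated replicate 1. In cholesterol synthesis and uptake 10 of 24 rose and 4 fell, and the number that fell was 2 without untreated replicate 3. SC5D (0.63 ± 0.05), INSIG1 (0.51 ± 0.05), HMGCS1 (0.45 ± 0.05) and MSMO1 (0.42 ± 0.07) rose. ACAT2 (−0.54 ± 0.06) and FDPS (−0.32 ± 0.07), which act in the same pathway, fell. Fatty acid oxidation and peroxisome genes gave 2 higher and 6 lower of 32, and the number lower was 2 without untreated replicate 2, 77-39 replicate 1 or 77-39 replicate 2 and 3 without untreated replicate 3.

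The actin cytoskeleton was downregulated: 26 of 35 genes fell and 3 rose (median −0.26). ACTA2 was at 33.7, 36.98 and 36.4 FPKM in the untreated libraries and 18.5, 19.7 and 18.99 FPKM in the treated libraries. The main cytoplasmic actin ACTB was at 1808, 1964 and 1896 FPKM untreated and 1137, 1146 and 1013 FPKM treated, and the actin-sequestering peptide gene TMSB4X at 4534, 4066 and 4149 FPKM untreated and 2526, 2653 and 3157 FPKM treated. Treated values were below untreated ones in all 3 (log2 fold change −0.87 ± 0.05, adjusted p = 0.00018 for ACTA2, log2 fold change −0.78 ± 0.08, adjusted p = 0.00098 for ACTB and log2 fold change −0.62 ± 0.11, adjusted p = 0.0076 for TMSB4X). The crosslinker FLNA fell from 365 ± 32.8 to 245 ± 7.33 FPKM. The regulatory light chains MYL12A (0.24 ± 0.06) and MYL12B (0.30 ± 0.06) and the protease CAPN2 (0.33 ± 0.05) rose. Actin genes and ribosomal protein genes have many processed pseudogenes that can share their reads, so their values are uncertain. Tubulins moved both ways: TUBB2A (0.79 ± 0.10), TUBA1A (0.50 ± 0.06) and the microtubule-associated MAP1B (0.61 ± 0.12) rose, while the destabilizer STMN1 (−0.57 ± 0.06) and TUBG1 (−0.36 ± 0.06) fell. In the matrix COL6A2 rose from 7.31 ± 0.501 to 11.9 ± 0.889 FPKM and the proteoglycan LUM rose from 12.6 ± 0.730 to 17.2 ± 1.13 FPKM, and FBLN1 (−0.61 ± 0.05), LAMB2 (−0.37 ± 0.08) and COL3A1 (−0.36 ± 0.05) fell. Of 19 adhesion genes 8 rose and 3 fell, and the number that rose was 4 without 77-39 replicate 1 and 5 without 77-39 replicate 2. The tetraspanin CD9 rose from 6.20 ± 0.530 to 9.34 ± 0.944 FPKM.

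Among signalling genes, ID1 and ID2, inhibitors of differentiation that BMP signals induce, were upregulated. ID1 was at 39.9, 40.3 and 37.1 FPKM in the untreated libraries and 74.2, 78.2 and 90.5 FPKM in the treated libraries, and ID2 at 26.4, 27.2 and 22.1 FPKM untreated and 40.8, 43.4 and 48.9 FPKM treated. Both rose with no overlap (log2 fold change 1.03 ± 0.08, adjusted p = 0.00038 for ID1 and log2 fold change 0.79 ± 0.10, adjusted p = 0.0017 for ID2), and 9 of 30 genes of the TGF-beta, activin and BMP pathways rose and 2 fell. Of 25 immediate early and feedback genes 7 rose and 4 fell, and the number that fell was 2 without untreated replicate 3 or 77-39 replicate 2. JUN was at 8.29, 9.13 and 9.98 FPKM untreated and 14.7, 14.1 and 16.3 FPKM treated (0.66 ± 0.08), KLF10 rose from 4.85 ± 0.440 to 8.32 ± 0.634 FPKM and MAFF rose from 2.25 ± 0.156 to 3.84 ± 0.151 FPKM, whereas JUNB (−0.46 ± 0.07) and IER3 (−0.48 ± 0.11) fell. In the insulin and FOXO axis the receptor IGF2R, which also carries lysosomal enzymes, rose from 18.2 ± 1.23 to 29.8 ± 2.46 FPKM. FOXO4 fell from 7.90 ± 0.413 to 3.96 ± 0.240 FPKM, IRS1 fell (−0.34 ± 0.05) and IRS2 rose (0.27 ± 0.04). Of 27 WNT and NOTCH genes 7 fell and 1 rose, with the number that fell at 2 without untreated replicate 2, 77-39 replicate 1 or 77-39 replicate 2, 3 without untreated replicate 3 and 4 without untreated replicate 1, and FZD2 (−0.50 ± 0.08) and JAG2 (−0.49 ± 0.07) fell most. The YAP target CYR61 rose (0.53 ± 0.09), and TEAD1 rose (0.30 ± 0.07) while TEAD3 fell (−0.25 ± 0.06). SMOX, the spermine oxidase, rose from 1.40 ± 0.132 to 2.82 ± 0.331 FPKM.

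Zinc genes that were called rose. Of 12 metallothionein and zinc genes 6 rose and none fell. SLC39A14, an importer of zinc and iron, was at 36.6, 38.9 and 39.4 FPKM in the untreated libraries and 57.03, 53.98 and 52.6 FPKM in the treated libraries (log2 fold change 0.50 ± 0.05, adjusted p = 0.0009), and the exporter SLC30A1 rose from 9.86 ± 0.738 to 14.02 ± 0.444 FPKM. In the circadian group the output factors TEF (−0.59 ± 0.05) and DBP (−0.45 ± 0.07) and the period gene PER1 (−0.32 ± 0.07) fell and the repressor NFIL3 rose from 5.47 ± 0.240 to 8.17 ± 0.956 FPKM. Of 14 clock genes 4 rose and 5 fell, with CLOCK (0.31 ± 0.07), ARNTL2 (0.24 ± 0.06) and CRY1 (0.18 ± 0.04) up and NR1D1 (−0.25 ± 0.07) down. The number that rose was 1 without 77-39 replicate 1 and 2 without 77-39 replicate 2, and the number that fell was 3 without untreated replicate 3.

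Genes of RNA and protein turnover changed by small amounts. Splicing factors fell in 22 of 32 cases and rose in none (median −0.28). U2AF2 was at 63.3, 60.99 and 59.6 FPKM in the untreated libraries and 41.1, 44.1 and 44.9 FPKM in the treated libraries, and SRSF3 at 47.3, 47.4 and 46.02 FPKM untreated and 32.5, 33.7 and 35.7 FPKM treated. Neither had overlapping groups (log2 fold change −0.49 ± 0.05, adjusted p = 0.00095 for U2AF2 and log2 fold change −0.46 ± 0.05, adjusted p = 0.00099 for SRSF3). Of 42 proteasome genes 8 fell and 1 rose, with the number that fell at 5 without untreated replicate 3 or 77-39 replicate 1. The falls were led by PSMB9 (−0.69 ± 0.10), PSME1 (−0.62 ± 0.09) and PSME2 (−0.33 ± 0.05), parts of the immunoproteasome and its activator. Cytosolic ribosomal proteins were mostly not called: 4 of 81 rose and 2 fell, although the number that rose was 2 without untreated replicate 2, untreated replicate 3 or 77-39 replicate 2 and 13 without untreated replicate 1, and 13 with quantile normalization. Ribosome biogenesis gave 6 higher and 5 lower of 34, with RRP12 up (0.48 ± 0.06) and BOP1 down (−0.48 ± 0.05), and the number lower was 2 without 77-39 replicate 1 or 77-39 replicate 2 and 3 without untreated replicate 3.

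Immune and secretory genes did not move together. Of 17 interferon-stimulated genes 3 rose and 4 fell, and the number that fell was 1 without untreated replicate 2, untreated replicate 3, 77-39 replicate 1 or 77-39 replicate 3 and 2 without untreated replicate 1 or 77-39 replicate 2. IFI35 was at 17.6, 16.9 and 16.7 FPKM in the untreated libraries and 28.2, 29.1 and 30.7 FPKM in the treated libraries (log2 fold change 0.75 ± 0.05, adjusted p = 0.00022). ISG15 fell from 45.5 ± 0.946 to 34.6 ± 3.25 FPKM. In the class I presentation group the chaperone CALR rose from 202 ± 15.9 to 258 ± 6.06 FPKM, HLA-E rose (0.27 ± 0.05), and NLRC5, the activator of class I genes, fell (−0.44 ± 0.06). Of 19 genes of the NF-kB pathway 2 rose and 3 fell, with BCL3 (−0.48 ± 0.08) and TRAF2 (−0.39 ± 0.07) falling. The number that rose was 0 without 77-39 replicate 1 or 77-39 replicate 2 and 1 without untreated replicate 1, untreated replicate 3 or 77-39 replicate 3. Of 44 secreted factors associated with senescence 12 were expressed well enough to test, and 5 of them rose and 1 fell. The number that rose was 3 without untreated replicate 2, untreated replicate 3, 77-39 replicate 2 or 77-39 replicate 3, and the number that fell was 0 without untreated replicate 2, untreated replicate 3, 77-39 replicate 1 or 77-39 replicate 2. SPP1 rose from 2.58 ± 0.379 to 4.09 ± 0.173 FPKM, FGF2 rose from 2.73 ± 0.217 to 3.98 ± 0.130 FPKM, CSF1 rose (0.27 ± 0.08), and IGFBP7, the most abundant, fell from 396 ± 39.02 to 297 ± 43.6 FPKM (−0.42, adjusted p = 0.034).

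The called SWI/SNF, HOX and nuclear receptor genes mostly fell, and steroid synthesis genes did not. The first 3 groups were GC-rich, with medians of 53.7%, 55.7% and 55.4% GC against 47.9% over all genes tested. Among all genes at 51.2% to 54.3% and 54.3% to 57.9% GC, 19.2% and 24.2% fell, and 8.69% and 7.66% rose. After the trend with GC content was removed, nuclear receptors had 3 higher and 6 lower. The part of GC content in these falls was not tested further. Of 21 SWI/SNF subunits 7 fell and none rose, with the number that fell at 4 without untreated replicate 2. DPF1, a subunit typical of neurons, was at 10.2, 10.7 and 9.76 FPKM in the untreated libraries and 4.45, 4.36 and 5.01 FPKM in the treated libraries (adjusted p = 0.0002), and ARID1A fell from 22.96 ± 0.778 to 17.3 ± 1.12 FPKM. Of 13 HOX genes 1 rose and 3 fell. HOXC8 (−0.54 ± 0.07), HOXC9 (−0.53 ± 0.08) and HOXC6 (−0.36 ± 0.05) fell, whereas HOXC13, of the same cluster, rose from 1.93 ± 0.398 to 3.83 ± 0.596 FPKM. Among 21 nuclear receptors 1 rose and 7 fell, with the number that fell at 3 without untreated replicate 2 and 4 without untreated replicate 3 or 77-39 replicate 1. In steroid hormone synthesis 2 of 13 rose and 1 fell: HSD17B12 rose from 8.96 ± 0.402 to 13.8 ± 0.705 FPKM and HSD17B8 fell from 22.1 ± 0.517 to 12.04 ± 1.01 FPKM. WT1 was the granulosa cell marker that fell (from 59.7 ± 2.85 to 46.9 ± 0.976 FPKM).

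Genes outside every group were ranked by the size of their change. The 12 protein-coding genes with the largest rise included TMIE, a component of the hair cell transduction channel, which was at 0.947, 0.635 and 0.499 FPKM in the untreated libraries and 4.70, 4.25 and 4.91 FPKM in the treated libraries. ERICH2 was at 0.897, 0.779 and 0.761 FPKM untreated and 4.40, 3.78 and 5.47 FPKM treated. The prion protein gene PRNP was at 12.3, 11.2 and 11.9 FPKM untreated and 31.04, 31.8 and 28.4 FPKM treated, and SEPHS2, which makes selenophosphate for selenoproteins, at 45.4, 44.1 and 44.7 FPKM untreated and 84.5, 84.6 and 88.6 FPKM treated. These 4 genes rose with no overlap (log2 fold change 1.74 ± 0.11, adjusted p = 0.00022 for TMIE, log2 fold change 1.60 ± 0.12, adjusted p = 0.00033 for ERICH2, log2 fold change 1.30 ± 0.06, adjusted p = 9.1e-05 for PRNP and log2 fold change 0.93 ± 0.04, adjusted p = 9.1e-05 for SEPHS2). FAM129A (2.18 ± 0.10), the ER chaperone CLGN (0.98 ± 0.07), the cochaperone SGTB (0.98 ± 0.05), the kinesin KIF1A (0.96 ± 0.06), the kinase STK40 (0.92 ± 0.05), FBLL1 (0.90 ± 0.11), the ciliary dynein DYNC2H1 (0.87 ± 0.09) and the GTPase RAB39B (0.86 ± 0.05) completed them.

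The 12 with the largest fall began with OTOL1, a collagen-like protein of the inner ear, which was at 19.6, 17.96 and 16.2 FPKM in the untreated libraries and 5.27, 6.33 and 5.96 FPKM in the treated libraries. The creatine kinase CKB was at 19.8, 22.5 and 21.02 FPKM untreated and 7.37, 8.40 and 7.93 FPKM treated. LAG3, known as an immune checkpoint receptor, was at 46.6, 56.02 and 49.5 FPKM untreated and 22.6, 21.5 and 19.2 FPKM treated, and the histone chaperone ASF1B at 20.1, 22.3 and 22.3 FPKM untreated and 8.44, 8.99 and 9.71 FPKM treated. The treated values of each were below all untreated values (log2 fold change −1.46 ± 0.09, adjusted p = 0.00018 for OTOL1, log2 fold change −1.31 ± 0.07, adjusted p = 0.00012 for CKB, log2 fold change −1.22 ± 0.08, adjusted p = 0.00027 for LAG3 and log2 fold change −1.17 ± 0.07, adjusted p = 0.00017 for ASF1B). The others were UPK1A (−1.30 ± 0.13), PPP1R13L, GPR162 (−1.18 ± 0.09), WDR54 (−1.15 ± 0.14), AHDC1 (−1.11 ± 0.07), the myosin light chain MYL6B (−1.09 ± 0.06), HIRIP3 (−1.08 ± 0.09) and the potassium channel KCNN1 (−1.05 ± 0.07). LAG3 and GPR162 are both on chromosome 12.

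Coding and noncoding genes were also counted apart. Of 10245 protein-coding genes 19.6% rose and 18.4% fell, against 7.99% and 13.8% of 551 antisense genes and 12.4% and 10.5% of 418 lincRNAs. The largest noncoding rise was in the mitochondrial tRNA gene MT-TE, which was at 28.1, 61.9 and 43.4 FPKM in the untreated libraries and 204, 164 and 152 FPKM in the treated libraries (log2 fold change 1.99 ± 0.26, adjusted p = 0.0023). MT-TM (1.60 ± 0.28), AC131392.1 (1.38 ± 0.28), AC007405.3 (1.32 ± 0.12), ALG1L9P (1.22 ± 0.15) and the pseudogene ROCK1P1 (1.22 ± 0.09) followed. ATP2A1-AS1 was at 18.1, 13.96 and 14.6 FPKM untreated and 3.78, 3.50 and 3.90 FPKM treated (log2 fold change −1.80 ± 0.10, adjusted p = 0.00015). MIR4489 (−2.09 ± 0.27), AP000251.1 (−1.38 ± 0.06), AP000553.7 (−1.37 ± 0.31), SNORD62A (−1.39 ± 0.33) and SNORD116-14 (−1.37 ± 0.40) also fell. Reads over tRNA, snoRNA and miRNA genes can come from longer transcripts across them, and reads of an antisense gene cannot be told apart from those of its partner.

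The direction of change moved with the base composition of the transcripts. When the genes were put in 10 bins of equal size by the GC content of their longest transcript, the median log2 fold change went from 0.16 in the lowest bin (21.1% to 38.2% GC) to −0.15 in the highest (61.6% to 83.9% GC), with every bin below the one before it. In the lowest bin 38.4% of genes rose and 6% fell, and in the highest 6.08% rose and 30.6% fell. Taken against the mean of the 6 libraries, the highest bin was at 0.03, 0.11 and 0.08 in the untreated libraries and at −0.11, −0.11 and 0.01 in the treated ones, with treated replicate 3 close to the untreated range. The lowest bin was at −0.08, −0.11 and −0.05 untreated and at 0.08, 0.09 and 0.06 treated, without overlap. By chromosome, GC-rich chromosome 19 had 9.01% of genes up and 27.6% down, and GC-poor chromosome 4 had 24.8% up and 10.6% down. In the libraries labelled COV434 the bin medians ran between −0.07 and 0.04. The part of GC content in any single result was not tested beyond the removal of the trend.

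Group counts were smaller when the libraries of both labels were fitted together and shared their spread (570 genes higher and 667 lower). The number that fell was then 24 of mitotic genes, 26 of replication genes, 16 of glycolytic genes, 7 of actin genes, 3 of splicing factors, 4 of nuclear-encoded respiratory subunits and 1 of mitochondrial ribosomal proteins. The number that rose was 13 of lysosomal genes, 9 of ER genes, 5 of amino acid transporters, 5 of ATF4 and CHOP genes, 6 of p53 targets and 1 of autophagy genes. Adhesion genes, mitochondrially encoded proteins and cytosolic heat shock genes had none that rose.

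After the trend of each library with GC content was removed by lowess, 1854 genes were higher and 1988 lower, and 3067 of the 4307 genes called before were still called, all in the same direction. Under the correction, 46 replication and 43 mitotic genes fell, 19 glycolytic genes fell, 30 lysosomal genes rose, 16 ER genes rose, 14 amino acid transporters rose and 22 actin genes fell. Clock genes went from 4 higher and 5 lower to 1 and 3, adhesion genes from 8 to 5 higher, zinc genes from 6 higher and none lower to 4 and 1, and genes of mitochondrial transcription and biogenesis from 3 higher and 4 lower to none and 3. The clustered zinc finger genes of chromosome 19, which are GC-poor within a GC-rich chromosome, went from 33 higher and 12 lower of 171 to 18 and 18, and the number higher was also 19 without 77-39 replicate 1 and 20 without untreated replicate 2 or 77-39 replicate 2, with the number lower at 3 without 77-39 replicate 1, 4 without 77-39 replicate 2, 5 without untreated replicate 3 and 6 without untreated replicate 2. ZNF737 (0.47 ± 0.08) and ZNF761 (0.47 ± 0.07) rose under both settings. Of the genes named in the text, 16 were no longer called. Among them were ATM, MT-ND4, LOX, ORC4, TFEB, MYL12A, TEAD1, TEAD3, OPA1, POLRMT and the clock genes CLOCK, ARNTL2, CRY1, PER1 and NR1D1. Of the fibroblast and stromal markers 1 rose under the correction, against 2 before it.

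**Figure D4:**
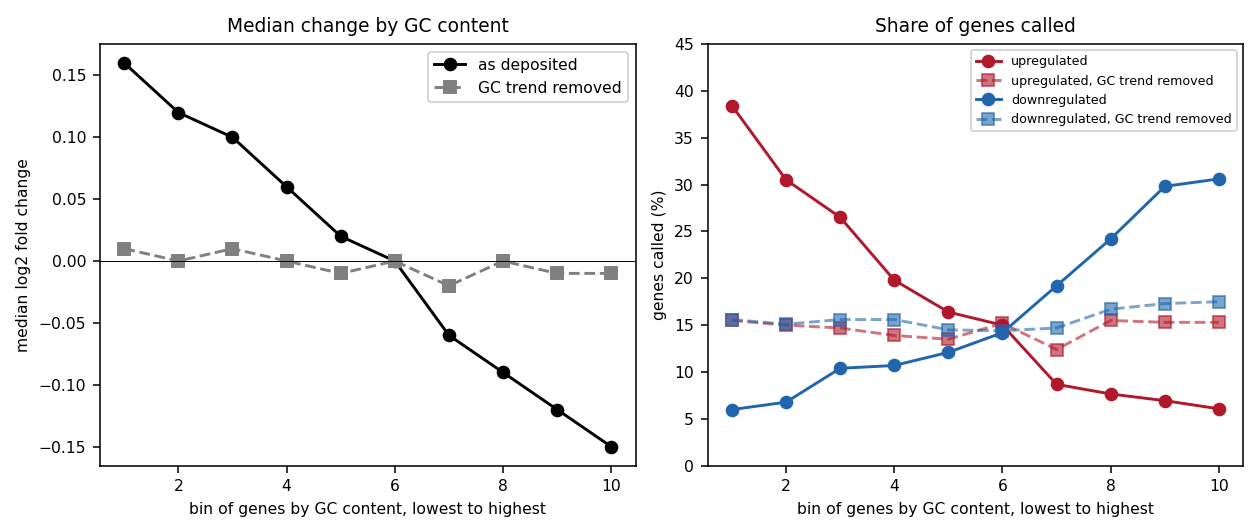
Median log2 fold change (left panel, log2 units) and share of genes upregulated and downregulated (right panel, percent) in 10 bins of genes by GC content of the longest transcript (x axis, bin from lowest to highest GC), before and after removal of the GC trend. The median falls from 0.16 to −0.15 before removal and stays between −0.02 and 0.01 after it.

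The response was compared with that of the libraries labelled COV434 by the interaction of labelled line and treatment over all 12 libraries. Of 13127 genes, 472 (3.6%) differed, 243 (1.85%) with a more positive and 229 (1.74%) with a more negative change in the libraries labelled KGN, and 2367 had an unadjusted p under 0.05. This count rests on single libraries. It was 202, 132 and 132 without untreated replicates 1, 2 and 3 labelled KGN, 126, 128 and 216 without treated replicates 1, 2 and 3 labelled KGN, 791 and 234 without untreated replicates 1 and 3 labelled COV434, and 976 and 243 without treated replicates 1 and 2 labelled COV434. Some cell division genes were among those that differed, 4 of 43 mitotic and 6 of 50 replication genes. The median change of these groups in the libraries labelled COV434 was −0.26 and −0.14. The difference of the log2 fold changes was −0.76 ± 0.13 for MYBL2, −0.91 ± 0.16 for CDCA8 and −0.85 ± 0.13 for TK1. In the libraries labelled COV434 MYBL2 changed by −0.40, CDCA8 by 0.02 and TK1 by −0.30. The amino acid exchanger SLC3A2 (1.14 ± 0.16), SCD (1.09 ± 0.23), the glycolytic regulator PFKFB2 (1.18 ± 0.19) and MAP1LC3B (0.85 ± 0.14) had a more positive change in the libraries labelled KGN. AARS (−1.09 ± 0.22), ACTA2 (−1.52 ± 0.13), HSD17B8 (−1.54 ± 0.17) and ISG15 (−1.71 ± 0.23) had a more negative one. HSPA8 rose in the libraries labelled KGN, and its difference was −1.09 ± 0.23, that is, its rise was smaller there. With each of the 12 libraries left out in turn, the difference was called in 4 cases for SCD and HSPA8, 5 for AARS, 8 for MYBL2 and CDCA8 and 12 for the others named here. Of the 472 genes, 89 were below the level tested in the libraries labelled COV434 and 84 in those labelled KGN. Their difference only restates the change in the other line, so that 299 genes bear on a difference between responses, and genes named above such as TMIE, CLGN, OTOL1 and LAG3 are not counted among these.

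**Figure D5:**
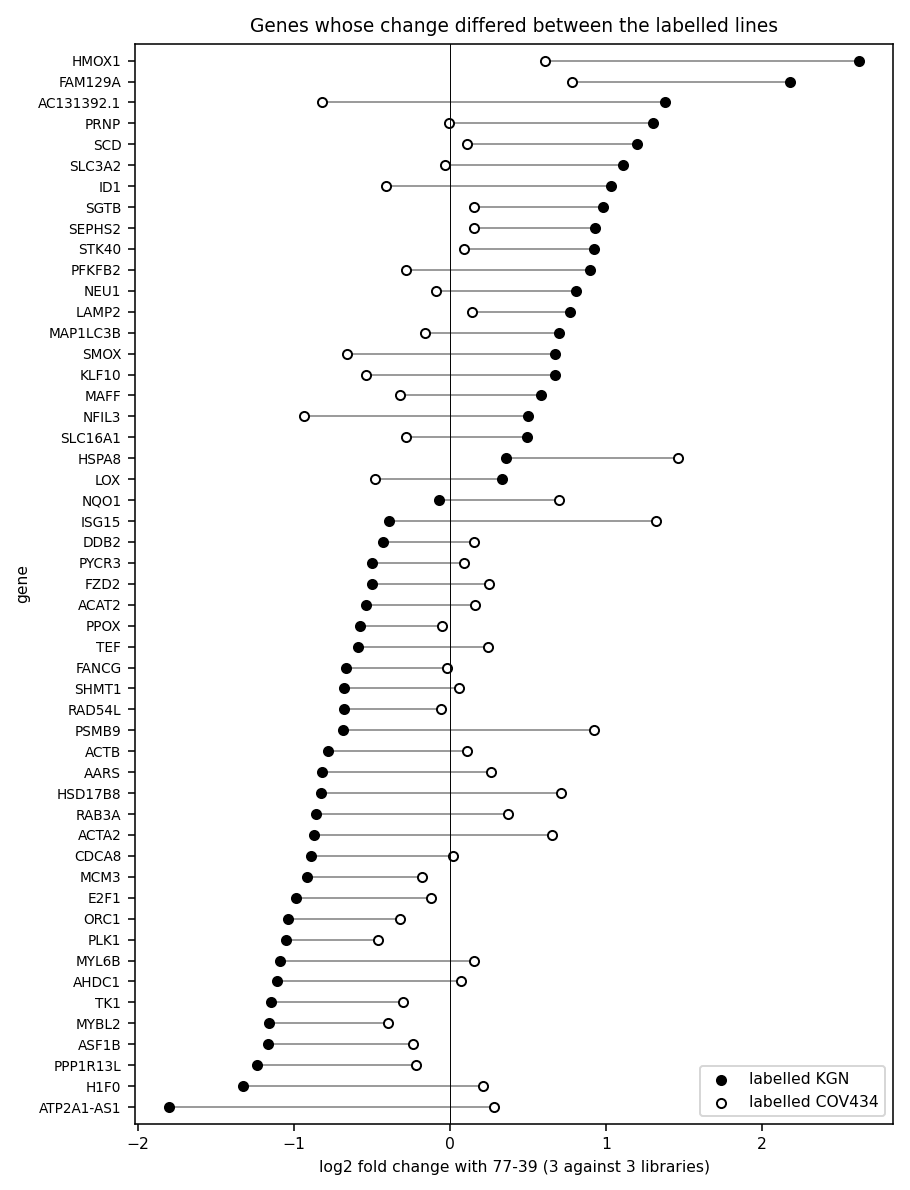
Log2 fold change with 77-39 in the libraries labelled KGN (filled points) and in those labelled COV434 (open points) for named genes whose difference between the labelled lines passed an adjusted p of 0.05, joined by a line, in log2 units. Genes are ordered by the change in the libraries labelled KGN, from HMOX1 at the top, and the fall of ACTA2 and the rise of SLC3A2 have no counterpart of the same size among the open points.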

How the data were processed

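RNA was extracted with TRIzol and sequenced on an Illumina platform. The authors deposited FPKM per gene for 12 libraries, and the submitters' processing notes name HISAT2 (2.0.5) and the mouse builds mm10 and mm8, although the table is human, with coordinates that match GENCODE release 29 (GRCh38) for all 58735 genes. The study also reports a check of RNA amount and integrity. Other steps from reads to FPKM are not given in the sources used here. FPKM times gene length gave whole reads (tolerance 0.05) for 100% of genes, and voom on those reads called 2658 genes higher and 2358 lower. The total that the FPKM implied was not the sum of these reads. It was 18540179 against 16803402 in untreated replicate 1 labelled KGN. In 77-39 replicate 1 labelled COV434 it was 14971926 against 16440143, and how it was set is not given. The 12671 genes that averaged 1 FPKM or more in the 6 libraries labelled KGN were tested on log2(FPKM + 1) with limma (3.58.1, lmFit and eBayes with trend, two-sided, Benjamini-Hochberg over these genes). The fold changes are on that scale, which understates changes of low genes. The difference between labelled lines was the interaction over 12 libraries. The fit was also run on simulated data with a fixed spread and fewer changed genes than were called here. Those data had no trend with GC content and no library that stood apart, so the run does not cover these features.

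Members and gene lists were chosen with earlier results of these data known. Named genes were list members with the largest called changes without overlap (mean of at least 2 FPKM), members named for their role, the 12 coding genes with the largest rise and fall outside the lists, 6 noncoding genes each way, and genes with under 3 reads in one group and at least 60 in the other. Some genes these rules name are not reported here. Removal of the GC trend (lowess, span 0.3) was added after seeing the data. RefSeq promoters were matched by symbol for 8820 of 12671 genes. Intervals of reads cover counting error only.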

Additional observations from a re-analysis of the deposited data

Results flagged for a closer look

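For the genes listed here, the change with 77-39 in the libraries labelled KGN differed from that in the libraries labelled COV434 by a test of the difference itself (limma, interaction of labelled line and treatment, adjusted p under 0.05, 3 libraries in each of 4 groups). Each value is the log2 fold change in the libraries labelled KGN minus that in the libraries labelled COV434, on the log2(FPKM + 1) scale. The change was more positive in the libraries labelled KGN for AC131392.1 (2.20), HMOX1 (2.01), ID1 (1.44), NFIL3 (1.44), FAM129A (1.40), SMOX (1.33), PRNP (1.30), KLF10 (1.21), PFKFB2 (1.18), SLC3A2 (1.14), SCD (1.09), NEU1 (0.90), MAFF (0.89), MAP1LC3B (0.85), STK40 (0.83), SGTB (0.83), LOX (0.81), SLC16A1 (0.78), SEPHS2 (0.77) and LAMP2 (0.63).

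Among genes of the cell cycle and of DNA repair the change was more negative for DDB2 (−0.58), PLK1 (−0.59), RAD54L (−0.63), FANCG (−0.65), ORC1 (−0.71), MCM3 (−0.74), MYBL2 (−0.76), TK1 (−0.85), E2F1 (−0.88), CDCA8 (−0.91) and ASF1B (−0.93). It was also more negative for PPOX (−0.53), PYCR3 (−0.59), ACAT2 (−0.70), SHMT1 (−0.74), FZD2 (−0.75), NQO1 (−0.77), TEF (−0.83), ACTB (−0.89), PPP1R13L (−1.02), AARS (−1.09), HSPA8 (−1.09), AHDC1 (−1.18), RAB3A (−1.23), MYL6B (−1.24), ACTA2 (−1.52), H1F0 (−1.54), HSD17B8 (−1.54), PSMB9 (−1.60), ISG15 (−1.71) and ATP2A1-AS1 (−2.08). NQO1 was not called in the libraries labelled KGN.

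With each of the 12 libraries left out in turn, 18 of these 51 differences were called every time. The difference was called in 1 of the 12 for ID1, 2 of the 12 for AHDC1, ORC1 and RAD54L, 3 of the 12 for FANCG and LOX, 4 of the 12 for ACAT2, ATP2A1-AS1, FZD2, HSPA8, LAMP2, PPOX, SCD, SEPHS2 and SLC16A1 and 5 of the 12 for AARS, ACTB, MYL6B, NQO1, PSMB9 and SHMT1. Genes below the level tested in the libraries labelled COV434 are not listed, since their difference only restates the change in the libraries labelled KGN.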

How the results depend on the processing

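When all 12 libraries were fitted together, 570 genes were higher and 667 lower, and the cause was not tested. Leaving out each of the 6 libraries in turn gave 1393 to 2054 higher and 1374 to 2081 lower, with the lowest counts without 77-39 replicate 2, and the count of differences between the labelled lines ran from 126 to 976 over the 12 libraries left out. The other alternatives (pseudocount 0.1, a minimum of 0.1 FPKM, no minimum, median-ratio and quantile scaling, voom on recovered reads, protein-coding genes, length and GC trends) gave 1540 to 2658 higher and 1409 to 2358 lower. Of 244 genes named, none changed direction under the alternatives run. In the fit over 12 libraries 78 lost their call, without a minimum 23 did, and after removal of the GC trend 16 did, OPA1 and POLRMT included. Without any 1 of the 6 libraries 24 lost it at least once, namely ARNTL2, ATM, CLOCK, CRY1, CSF1, E2F6, H2AFX, IGFBP7, LOX, MT-ND4, MT-ND5, MYL12A, NR1D1, ODC1, ORC4, POSTN, TEAD1, TEAD3, TFEB, TFRC, TXN2, AP000553.7, SNORD62A and SNORD116-14. With the replicate number as a block the fit gave 1662 higher and 1615 lower genes and 562 differences between the labelled lines. Same-numbered libraries of the 2 groups did not deviate together (correlations −0.016, −0.018 and −0.019). With 3 libraries a group this cannot show whether same-numbered cultures were handled as pairs. At 15547851 reads or more a library, a gene of 1 kb with under 3 reads lies below 0.179 FPKM, and smaller changes of low genes were not detectable.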

Other observations

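Several gene groups not described so far were measured in the same 6 libraries. Of 24 genes for mitochondrial transcription and biogenesis, 3 rose and 4 fell, and the number that rose was 1 without untreated replicate 2, 77-39 replicate 1 or 77-39 replicate 2. The import channel gene TOMM40 was at 36.9, 37.6 and 38.6 FPKM in the untreated libraries and 24.4, 26.7 and 29.7 FPKM in the treated libraries, with no overlap (log2 fold change −0.47 ± 0.07, adjusted p = 0.0036). The rRNA methyltransferase TFB1M (−0.30 ± 0.05) and the mitochondrial RNA polymerase POLRMT (−0.23 ± 0.05) fell, and OPA1, which fuses inner membranes, rose (0.29 ± 0.06). Of 16 further genes for peroxide and radical defence 2 rose and 2 fell, and those that fell, TXNRD2 (−0.41 ± 0.07) and TXN2 (−0.29 ± 0.06), code for the thioredoxin system of mitochondria.

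Of 21 genes of the polyamine and methionine cycle 4 rose and 1 fell, and the number that rose was 1 without 77-39 replicate 2 and 2 without untreated replicate 2, untreated replicate 3 or 77-39 replicate 1. ODC1, the first enzyme of polyamine synthesis, changed by 0.21 ± 0.05. Neuronal genes that were expressed moved in both directions, with 2 of 8 higher and 3 lower. RAB3A, a GTPase of synaptic vesicles, was at 2.94, 2.96 and 2.43 FPKM untreated and 0.818, 1.28 and 1.15 FPKM treated, and SYT11, a synaptotagmin, was at 14.2, 14.9 and 14.6 FPKM untreated and 21.3, 20.5 and 19.6 FPKM treated. Every treated library was below the untreated ones for RAB3A (log2 fold change −0.86 ± 0.11, adjusted p = 0.0021) and above them for SYT11 (log2 fold change 0.46 ± 0.05, adjusted p = 0.00086). Of 6 BEX and TCEAL genes tested, 1 rose and none fell.

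The deposited table lists 27 gene names in the form of dates, of which 13 passed the minimum of 1 FPKM and were tested under the identifier of the gene.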
